A study of Mus musculus with 28 samples.

Results

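The 7 genes described here encode the enzymes that make phosphatidylinositol 3-phosphate (PI3P) and the complex that converts PI3P into PI(3,5)P2. They were chosen by name, with earlier results of these data known. They are the class II kinases *Pik3c2a* and *Pik3c2b*, the class III kinase *Pik3c3* (Vps34) with its regulatory subunit *Pik3r4* (Vps15), and the PI3P 5-kinase *Pikfyve* with its scaffold *Vac14* and the phosphatase *Fig4*. *Pik3c2a* (ENSMUSG00000030660) lies on chromosome 7, *Pik3c2b* (ENSMUSG00000026447) and *Pikfyve* (ENSMUSG00000025949) on chromosome 1, *Pik3c3* (ENSMUSG00000033628) on chromosome 18, *Pik3r4* (ENSMUSG00000032571) on chromosome 9, *Fig4* (ENSMUSG00000038417) on chromosome 10 and *Vac14* (ENSMUSG00000010936) on chromosome 8. They were 7 of the 55359 gene identifiers shared by both count tables, and all 7 passed the filter on low counts in each cohort, where 15439 and 14841 genes were tested.

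PI3P is a lipid label of early endosomes and autophagosomes, and it recruits proteins that carry FYVE, PX or PROPPIN domains. PIKfyve adds a phosphate to PI3P on late endosomes and lysosomes, where the product PI(3,5)P2 gates ion channels and is needed for membrane fission. VAC14 holds PIKfyve and FIG4 together, and loss of any of these proteins is known to give enlarged vacuoles. The same lipids are the substrates of the phosphatase myotubularin (*Mtm1*), the gene of X-linked centronuclear myopathy. *Dnm2* (dynamin 2) and *Bin1* (amphiphysin 2), which are mutated in other forms of this muscle disease, encode proteins that constrict and bend membranes.

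RNA-seq was performed on tibialis anterior muscle of 28 mice on the C57BL/6N background at 8 weeks of age, in 7 groups of 4. The Dnm2 cohort holds WT mice on placebo, WT mice on tamoxifen, Dnm2 S619L/+ mice on placebo and Dnm2 S619L/+ mice on tamoxifen (S619L below). The Bin1 cohort holds WT mice on placebo, Bin1 mck-/- mice on placebo and Bin1 mck-/- mice on tamoxifen (KO below), and no WT mice on tamoxifen. Tamoxifen, a ligand of the estrogen receptor, was supplied in the food. Dnm2 S619L/+ mice carry the mutation on 1 allele in all tissues, whereas in Bin1 mck-/- mice *Bin1* is deleted in muscle, under the muscle creatine kinase promoter, so other cells of the sample keep the gene. The mice were called separate samples by their labels, which give neither litters nor sex, and p-values measure the spread between these mice.

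Depth was 15586333 to 109710886 reads on genes per mouse in the Dnm2 cohort and 24671835 to 35136327 in the Bin1 cohort. *Bin1* checked the KO labels, with 539.5 ± 15.7 CPM (SD, n = 4) in WT and 56.1 ± 5.10 CPM (SD, n = 4) in KO placebo mice. A point mutation cannot be checked by counts, and *Dnm2* was at 63.0 ± 1.45 CPM (SD, n = 4) in WT and 67.5 ± 4.64 CPM (SD, n = 4) in S619L placebo mice. All 8 markers of skeletal muscle fibers were expressed in every group. Some libraries stood apart. Markers of bone-forming cells, which muscle should lack, summed to 884 to 2083 CPM in WT tamoxifen mice against 29.8 to 57.7 CPM in WT placebo mice. In S619L tamoxifen mice they summed to 643, 1426 and 1597 CPM in mice 1, 2 and 3 and to 60.5 CPM in mouse 4, and in KO tamoxifen mouse 2 to 585 CPM against 18.3 to 25.5 CPM in the other 3. *Xist* was at 124 to 182 CPM in 2 of 4 mice of each of 3 groups of the Dnm2 cohort and in all 4 S619L tamoxifen mice, and below 1 CPM in the other 6 mice, and in the Bin1 cohort it was at 70.8 to 115 CPM in every mouse. *Xist* and tamoxifen are thus partly confounded in S619L mice and cannot be fully told apart there.

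Levels are given as CPM, a gene's counts relative to library size after TMM scaling within a cohort, and between genes only as CPM per kilobase of exon. That length joins all annotated exons of a gene and is not that of 1 transcript, so the order of the genes depends on it. In WT placebo mice of the Dnm2 cohort, *Pik3c3* had the highest level at 5.11 ± 0.49 CPM per kilobase (SD, n = 4). *Vac14* followed at 4.23 ± 0.59, *Fig4* at 3.84 ± 0.34, *Pik3c2b* at 2.99 ± 0.38, *Pik3r4* at 2.06 ± 0.087, *Pik3c2a* at 0.929 ± 0.14 and *Pikfyve* at 0.491 ± 0.027 CPM per kilobase (SD, n = 4 each). The neighbouring levels of *Pik3c3* and *Vac14*, and of *Vac14* and *Fig4*, overlapped as mean ± SD, and those of the other neighbours did not. *Pik3r4*, *Pik3c2a* and *Pikfyve* held the last 3 places in that order in all 7 groups. *Vac14* held the first place in S619L placebo and S619L tamoxifen mice and in all 3 groups of the Bin1 cohort. *Pikfyve*, the catalytic subunit, was thus below its scaffold and its phosphatase per length in every group.

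**Figure D1:**
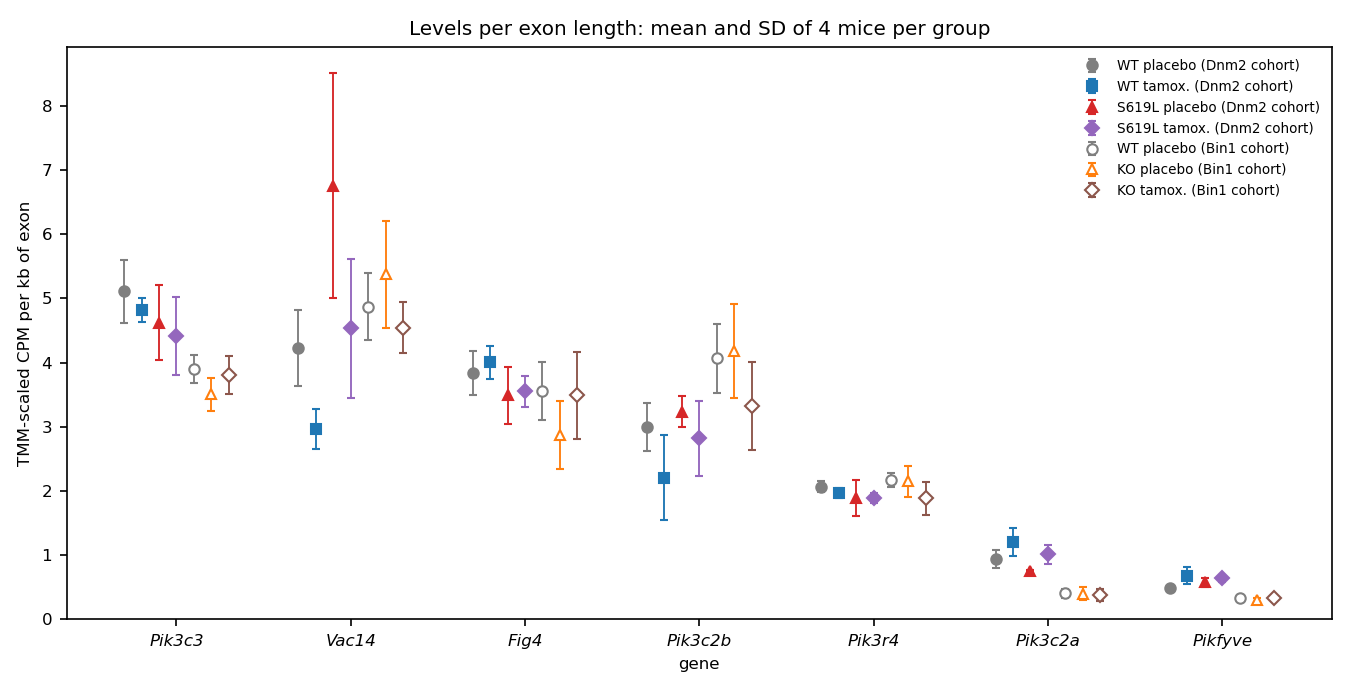
Mean TMM-scaled CPM per kilobase of exon (points, y axis from 0) with SD (bars) over 4 mice for each of the 7 genes (x axis) in the 7 groups, with open symbols for the Bin1 cohort. *Vac14* in S619L placebo mice is the highest point at 6.76, and *Pikfyve* is the lowest gene in every group at 0.297 to 0.678.

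*Vac14* was higher in S619L than in WT mice on placebo, and in WT mice tamoxifen went with less *Vac14* and more *Pikfyve*. These 3 were the results of the 7 genes that passed the test (edgeR, adjusted p under 0.05) among the 11 comparisons. *Fig4*, *Pik3c3* and *Pik3r4* stayed within 0.31 on the log2 scale in each of the 8 comparisons between groups, and their smallest adjusted p was 0.173. In bulk muscle, fewer cells of a type and less RNA per cell cannot be told apart.

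**Figure D2:**
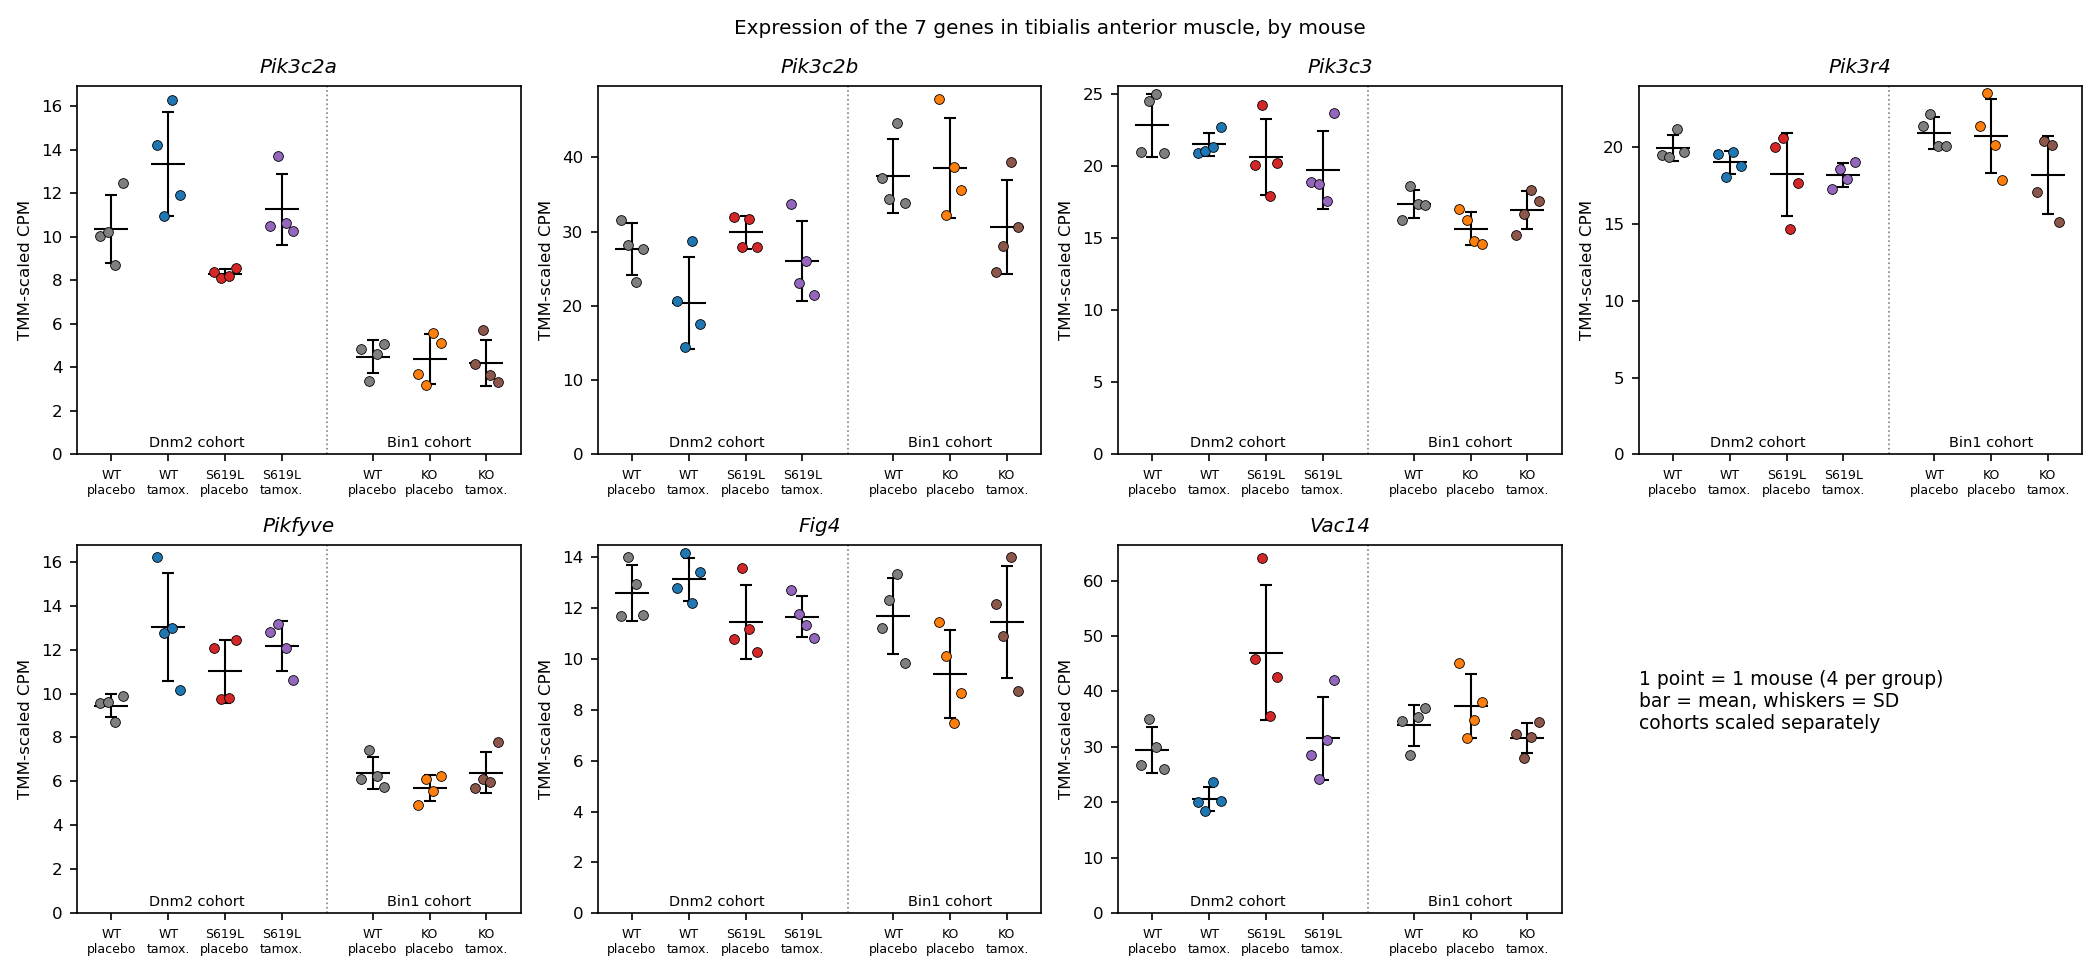
TMM-scaled CPM (y axes from 0) of each of the 7 genes, with 1 point per mouse, the mean as a bar and SD as whiskers for each group of 4 mice (x axis), and a dotted line between the cohorts, which were scaled separately. *Vac14* in S619L placebo mice sits between 35.5 and 64.1 CPM, above all WT placebo mice of that cohort at 26.0 to 35.0 CPM.

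The first comparison asked what the S619L mutation changes without treatment. *Vac14*, the scaffold of the PIKfyve complex, was at 26.7, 35.0, 30.0 and 26.0 CPM in the 4 WT placebo mice. It was at 45.8, 64.1, 35.5 and 42.6 CPM in the 4 S619L placebo mice. The groups did not overlap, although the lowest S619L mouse lay just above the highest WT mouse. The log2 difference was 0.68 ± 0.18 (SE), or 1.60-fold higher in S619L mice (edgeR, adjusted p = 0.0153). Without S619L placebo mouse 2, the highest, it was 0.49 with an adjusted p of 0.056. Among the mice with *Xist*, the values were 26.7 and 26.0 CPM in WT and 45.8 and 42.6 CPM in S619L, and among those without it 35.0 and 30.0 CPM in WT and 64.1 and 35.5 CPM in S619L.

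*Vac14* was 1 of 7 genes called in this comparison, where 21.9% of all genes tested were called, 12.1% higher and 9.81% lower. *Pikfyve* was at 8.69 to 9.89 CPM in WT and 9.74 to 12.4 CPM in S619L placebo mice, which overlapped, with a log2 difference of 0.22 with an interval of -0.07 to 0.50 and an adjusted p of 0.251. *Fig4* was at 12.6 ± 1.11 and 11.5 ± 1.46 CPM (SD, n = 4), with a log2 difference of -0.14 and an interval of -0.36 to 0.09. The median size of the log2 difference was 0.14 over the 7 genes and 0.30 over all genes. Of the markers, 3 of 6 for macrophages and 3 of 6 for cartilage and tendon were higher in S619L mice, and 4 of 5 for endothelium, 2 of 8 for muscle fibers, 2 of 3 for satellite cells, 1 of 8 for bone-forming cells and 1 of 5 for erythroid cells were lower. The summed macrophage markers ran from 43.9 to 71.2 CPM in WT and from 66.5 to 279 CPM in S619L placebo mice, and their part in the result was not tested. Mitochondrial reads made up 19.6% to 25.7% in WT and 13.6% to 17.1% in S619L placebo mice. TMM factors were 0.812 to 0.90 in WT and 0.969 to 1.11 in S619L placebo mice. The part of these library differences was not tested either.

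The promoters of *Vac14* and *Pikfyve* are shown because these are the genes called, in opposite directions under tamoxifen. RefSeq windows of 250 bases before to 50 after the start site (GRCm38.p6) matched 6 of the 7 genes, all but *Pik3c3*. The 250 bases before each start site follow on the + strand, 5′ to 3′, with matches to CCAAT in either orientation in capitals. The window of *Vac14* is chr8:110618317-110618566 and that of *Pikfyve* is chr1:65186435-65186684.
Vac14: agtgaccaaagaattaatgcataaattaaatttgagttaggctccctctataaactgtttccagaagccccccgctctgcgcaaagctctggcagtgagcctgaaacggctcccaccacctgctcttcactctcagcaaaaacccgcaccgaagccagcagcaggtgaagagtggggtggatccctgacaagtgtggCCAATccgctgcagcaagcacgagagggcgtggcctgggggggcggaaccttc
Pikfyve: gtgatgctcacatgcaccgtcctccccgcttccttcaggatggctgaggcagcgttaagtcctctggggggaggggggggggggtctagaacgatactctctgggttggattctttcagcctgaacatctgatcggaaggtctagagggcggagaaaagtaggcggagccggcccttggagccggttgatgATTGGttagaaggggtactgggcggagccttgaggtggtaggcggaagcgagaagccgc

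Each held CCAAT at 1 position, 53 bases before the start site in *Vac14* and 59 bases before it in *Pikfyve*, and 37.4% of the 32851 RefSeq windows of that length held it. Of the 6 windows, that of *Vac14* alone held GTCACGTG, the core of the CLEAR element of lysosomal genes, which 2.25% of all windows hold. It matched on both strands, with overlapping matches that begin 30 and 32 bases after the start site (chr8:110618596-110618605) and share 1 match to the shorter CACGTG, which 7.15% of windows hold. GGTCANNNTGACC, the estrogen response element, was in none of the 6 windows and in 0.07% of all windows, and CCGGAAG was in that of *Fig4* alone and in 8.86% of all. Both strands were searched. A match describes the letters only.

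The second comparison asked what tamoxifen changes in WT mice. *Pikfyve*, the kinase, was at 9.56, 9.62, 8.69 and 9.89 CPM in the WT placebo mice. It was at 16.2, 12.7, 13.0 and 10.2 CPM in the WT tamoxifen mice. Every treated mouse was above every untreated one, and tamoxifen mouse 4 was just above. The log2 difference was 0.46 ± 0.13 (SE), or 1.38-fold higher with tamoxifen (edgeR, adjusted p = 0.0187). The call was lost without WT tamoxifen mouse 1 (0.34, adjusted p = 0.0739) and without WT placebo mouse 3 (0.43, adjusted p = 0.0507).

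*Vac14* moved the other way. The 4 WT tamoxifen mice were at 20.2, 18.5, 23.7 and 20.3 CPM, all below the WT placebo mice at 26.0 to 35.0 CPM. The log2 difference was -0.51 ± 0.18 (SE), or 0.703 of the placebo level (edgeR, adjusted p = 0.0463). This call was close to the threshold. It was kept when 7 of the 16 mice of the cohort were left out in turn and lost for the other 9. It was lost without WT placebo mouse 1 (adjusted p = 0.0551), mouse 2 (0.152) or mouse 3 (0.0967), without WT tamoxifen mouse 1 (0.0942), mouse 2 (0.124) or mouse 4 (0.0877), and without S619L placebo mouse 1 (0.0559), S619L tamoxifen mouse 1 (0.0548) or mouse 3 (0.0557). The log2 difference in those 9 fits ran from -0.56 to -0.41. *Fig4*, the third protein of the complex, was at 12.6 ± 1.11 CPM without and 13.1 ± 0.842 CPM with tamoxifen (SD, n = 4), a log2 difference of 0.06 with an interval of -0.16 to 0.29.

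*Pikfyve* and *Vac14* were 2 of 7 genes called with tamoxifen in WT mice, beside 27.7% of all genes tested, 15.8% higher and 11.9% lower. The median size of the log2 difference was 0.36 over the 7 genes and 0.31 over all genes. Unadjusted p (edgeR) was under 0.05 for 4 of the 7, which also include *Pik3c2a* and *Pik3c2b*. Markers moved in the same mice. With tamoxifen, 7 of 8 markers of bone-forming cells, 4 of 4 of osteoclasts, 6 of 6 of macrophages, 5 of 5 of fibroblasts, 5 of 6 of cartilage and tendon and 1 of 4 of Schwann cells were higher, and 1 of 8 of muscle fibers was lower. Osteoclast markers summed to 5.85 to 10.7 CPM without and 254 to 1475 CPM with tamoxifen, and fiber markers to 121500 to 145800 and 92250 to 105500 CPM. Bone markers summed to 1818, 2083, 884 and 995 CPM in WT tamoxifen mice 1, 2, 3 and 4, whose *Vac14* was at 20.2, 18.5, 23.7 and 20.3 CPM. The WT placebo libraries also had the highest share of mitochondrial reads, 19.6% to 25.7% against 13.6% to 19.0% in the other groups of the cohort. The part of these markers in the results was not tested. With library sizes computed without mitochondrial genes both calls were kept. TMM scaling was recomputed there, and 4273 of all genes were called as before. That setting hardly changed the fit, so it cannot decide the part of the mitochondrial share.

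Tamoxifen was then compared with placebo in S619L mice. *Vac14* was at 28.6, 24.3, 31.2 and 42.0 CPM in the S619L tamoxifen mice, against 35.5 to 64.1 CPM on placebo. Only mouse 4 reached into the placebo range. The log2 difference was -0.57 ± 0.18 (SE) and did not pass the test (edgeR, adjusted p = 0.0599). Bone markers summed to 643, 1426, 1597 and 60.5 CPM in S619L tamoxifen mice 1, 2, 3 and 4. Mouse 3, with the highest sum, had more *Vac14* than mice 1 and 2, and mouse 4, with the lowest sum, had the most. Between these groups 7 of 8 markers of bone-forming cells, 3 of 4 of osteoclasts and 3 of 5 of fibroblasts were higher with tamoxifen, and their part in the result was not tested. Without mouse 4 the log2 difference of *Vac14* was -0.74 with an adjusted p of 0.00853, and with *Xist* as a covariate it was -0.46 with an adjusted p of 0.183. *Vac14* under tamoxifen was at 31.5 ± 7.54 CPM in S619L and 29.4 ± 4.09 CPM in WT placebo mice (SD, n = 4), a log2 difference of 0.10 with an interval of -0.28 to 0.48.

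*Pikfyve* was at 12.1, 9.74, 9.82 and 12.4 CPM in S619L placebo mice and at 12.8, 13.1, 12.1 and 10.6 CPM in S619L tamoxifen mice. These groups overlapped, and the log2 difference was 0.14 with an interval of -0.14 to 0.42. All 4 S619L tamoxifen mice were above the WT placebo mice, whose highest value was 9.89 CPM. That log2 difference was 0.36 ± 0.13 (SE) with an adjusted p of 0.055 (edgeR), 0.0307 without S619L tamoxifen mouse 4 and 0.197 with *Xist* as a covariate. *Fig4* was at 11.7 ± 0.80 CPM in S619L tamoxifen mice (SD, n = 4), with a log2 difference of 0.03 to S619L placebo mice.

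None of the 7 genes was called in this comparison of S619L tamoxifen with S619L placebo mice, beside 8.26% of all genes. That share stands for 1276 genes, but 30 were called with only the groups compared and 2562 without S619L tamoxifen mouse 4. Unadjusted p was under 0.05 for 2 of the 7 genes, *Pik3c2a* and *Vac14*, and DESeq2 called both. None was called between S619L tamoxifen and WT placebo mice, beside 28.9% of all genes (15.8% higher and 13.1% lower), with 1 unadjusted p under 0.05 and 1 call by DESeq2, both *Pikfyve*. None was called between S619L and WT mice on tamoxifen, beside 2.7% of all genes. There *Vac14* was at 24.3 to 42.0 CPM in S619L and 18.5 to 23.7 CPM in WT mice, without overlap, a difference of 0.61 ± 0.18 (SE) on the log2 scale (edgeR, adjusted p = 0.0861), with the only unadjusted p under 0.05 and the only DESeq2 call. Without S619L tamoxifen mouse 4 it was 0.44 with an adjusted p of 0.213.

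Whether tamoxifen acted differently in the genotypes was tested as an interaction. It was called for none of the 7 genes, beside 0.259% of all genes, with no unadjusted p under 0.05 and no DESeq2 call. The interval of the difference on the log2 scale was -0.61 to 0.48 for *Vac14* and -0.72 to 0.08 for *Pikfyve*. For *Vac14* the tamoxifen difference was -0.51 in WT and -0.57 in S619L mice, and for *Pikfyve* it was 0.46 and 0.14. The wide intervals do not show that the genotypes responded alike. The S619L tamoxifen group entered this test with *Xist* in all 4 mice, and each other group with *Xist* in 2 of 4.

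**Figure D3:**
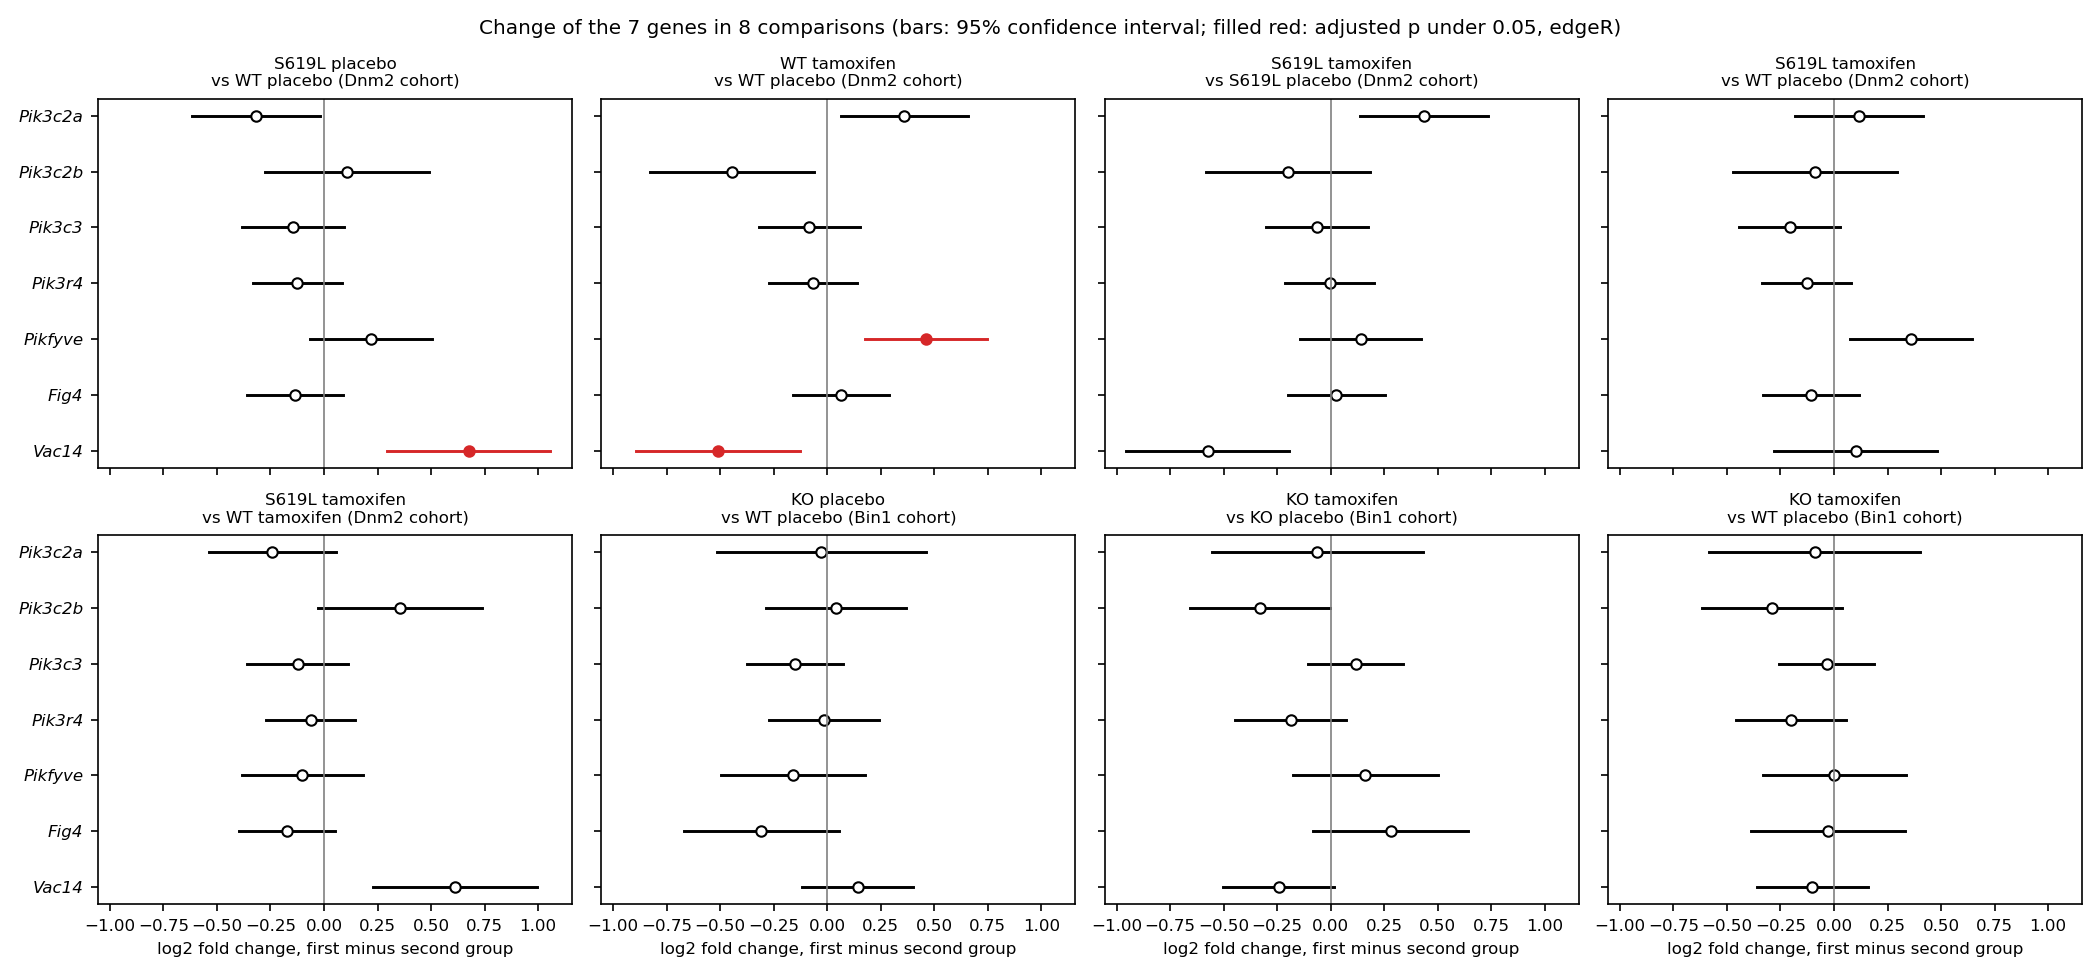
Log2 fold change (x axis, points) with its 95% confidence interval (lines) of the 7 genes (y axis) in 8 comparisons (panels), first minus second group, with filled red marks for adjusted p under 0.05 in edgeR. Red marks are *Vac14* at 0.68 in S619L placebo mice and *Pikfyve* at 0.46 and *Vac14* at -0.51 in WT tamoxifen mice.

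The class II kinases make PI3P and PI(3,4)P2 at the plasma membrane and on endosomes. *Pik3c2a* was at 10.0, 10.2, 8.69 and 12.5 CPM in WT placebo and at 8.38, 8.11, 8.19 and 8.58 CPM in S619L placebo mice. The S619L mice lay close together and just below the lowest WT mouse, and the log2 difference of -0.32 ± 0.14 (SE) did not pass the test (edgeR, adjusted p = 0.115). With tamoxifen the S619L mice were at 10.5, 13.7, 10.6 and 10.3 CPM, all above the placebo mice. This log2 difference was 0.44 ± 0.14 (SE) with an adjusted p of 0.0689 (edgeR), and 0.0437 without S619L tamoxifen mouse 4. The adjusted p was 0.16 with *Xist* as a covariate and 0.123 with a block for the replicate number. In WT mice on tamoxifen the values were 14.2, 10.9, 16.3 and 11.9 CPM, which overlapped the WT placebo mice (0.36, adjusted p = 0.0676). In that comparison *Pik3c2a* passed without WT placebo mouse 4 (adjusted p = 0.0304) or WT tamoxifen mouse 2 (0.0445).

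*Pik3c2b*, the second class II kinase, was at 31.6, 28.1, 23.2 and 27.7 CPM in WT placebo and at 20.6, 14.5, 28.8 and 17.6 CPM in WT tamoxifen mice. WT tamoxifen mouse 3 alone lay within the placebo range. The log2 difference was -0.45 ± 0.18 (SE) with an adjusted p of 0.0772 (edgeR), and -0.66 with 0.00796 without that mouse. DESeq2 called it with all mice (-0.46, adjusted p = 0.0473). In S619L mice the level was 29.9 ± 2.25 CPM on placebo and 26.0 ± 5.44 CPM on tamoxifen (SD, n = 4). Unverified transcripts on the same strand (*Gm45033*, *C430039J01Rik*) and the antisense gene *Gm44777* overlap *Pik3c2a*, the antisense gene *Gm28609* overlaps *Pik3c2b*, and small RNA genes lie on the opposite strand of *Pik3r4* (*Gm22720*) and *Fig4* (*Gm25526*). How the counting treated strand is not given in the sources used here.

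The class III complex is the main source of PI3P on endosomes and in autophagy. Its catalytic subunit *Pik3c3* was at 22.8 ± 2.19 CPM in WT placebo, 21.5 ± 0.822 in WT tamoxifen, 20.6 ± 2.61 in S619L placebo and 19.7 ± 2.71 in S619L tamoxifen mice (SD, n = 4 each). Its regulatory subunit *Pik3r4* was at 19.9 ± 0.843, 19.0 ± 0.75, 18.2 ± 2.71 and 18.2 ± 0.781 CPM in the same order. All groups overlapped for *Pik3c3*. For *Pik3r4* the S619L tamoxifen mice, at 17.3 to 19.1 CPM, lay just below the WT placebo mice at 19.4 to 21.2 CPM, with a log2 difference of -0.13 and an interval of -0.34 to 0.08. Without S619L tamoxifen mouse 4, which had the highest *Pik3c3* of its group at 23.7 CPM, *Pik3c3* was lower than in WT placebo mice by the test, with a log2 difference of -0.31 (edgeR, adjusted p = 0.0363).

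In the Bin1 cohort the question was whether loss of *Bin1* in muscle, and tamoxifen in these mice, go with changes of the same genes. *Vac14* was at 34.8, 28.6, 35.3 and 37.0 CPM in WT placebo, at 45.2, 31.6, 34.9 and 38.0 CPM in KO placebo and at 32.3, 27.9, 31.8 and 34.5 CPM in KO tamoxifen mice. The 3 groups overlapped. Bone markers summed to 25.5, 585, 18.3 and 19.8 CPM in KO tamoxifen mice 1, 2, 3 and 4, and their part was not tested. The log2 difference of *Vac14* was 0.14 for KO against WT, with an interval of -0.12 to 0.40. It was -0.24 for tamoxifen in KO mice, with an interval of -0.50 to 0.02.

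*Pikfyve* was at 6.40 ± 0.731 CPM in WT placebo, 5.71 ± 0.59 CPM in KO placebo and 6.40 ± 0.939 CPM in KO tamoxifen mice (SD, n = 4 each). *Fig4* had the widest difference between KO and WT placebo mice. It was at 11.2, 12.3, 13.3 and 9.85 CPM in WT and at 11.4, 10.1, 7.46 and 8.65 CPM in KO mice, a log2 difference of -0.31 with an interval of -0.67 to 0.05. *Pik3c2b* was at 38.6 ± 6.76 CPM in KO placebo and 30.7 ± 6.31 CPM in KO tamoxifen mice (SD, n = 4), a log2 difference of -0.33 with the only unadjusted p under 0.05 in that comparison (edgeR, adjusted p = 0.234). *Pik3c2a* ran from 4.20 to 4.48 CPM, *Pik3c3* from 15.7 to 17.4 CPM and *Pik3r4* from 18.2 to 20.9 CPM between the 3 group means.

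None of the 7 genes was called by edgeR between KO and WT placebo mice, beside 2.61% of all genes, and none had an unadjusted p under 0.05. None was called with tamoxifen in KO mice, beside 3.13% of all genes, or between KO tamoxifen and WT placebo mice, beside 0.849% of all genes and with no unadjusted p under 0.05. DESeq2 called none in these 3 comparisons. Of the markers, 4 of 6 for macrophages were higher in KO than in WT placebo mice, with sums of 112 to 219 and 34.1 to 55.3 CPM, as were 1 of 5 tested for cartilage and tendon and 1 of 3 tested for adipocytes, and 2 of 3 for satellite cells were lower. With tamoxifen in KO mice 1 of 3 for satellite cells was higher, and 1 of 3 tested for adipocytes and 1 of 4 for Schwann cells were lower. The 2.61% rests on single mice, since 388 genes were called with all mice and 18 without WT placebo mouse 8.

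The levels of the genes in the 2 cohorts are given side by side. *Pik3c2a*, with 11133 bases of exon, had group means of 8.31 to 13.3 CPM in the Dnm2 cohort and 4.20 to 4.48 CPM in the Bin1 cohort. *Pikfyve*, with 19211 bases, had 9.44 to 13.0 and 5.71 to 6.40 CPM. RNA was fragmented for 2 min in the Dnm2 cohort and for 8 min in the Bin1 cohort, so cohort and protocol cannot be told apart and the levels were not tested against each other. *Pik3c2b*, with 9237 bases, had 20.4 to 29.9 CPM in the Dnm2 and 30.7 to 38.6 CPM in the Bin1 cohort, *Pik3r4*, with 9660 bases, had 18.2 to 19.9 and 18.2 to 20.9 CPM, and *Fig4*, with 3282 bases, had 11.5 to 13.1 and 9.42 to 11.7 CPM.

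Differences of the within-cohort changes were tested in a fit of all 28 mice. The change with disease differed most for *Vac14*, by 0.52 on the log2 scale between S619L and KO, with an interval of 0.06 to 0.98. It had the only unadjusted p under 0.05 and an adjusted p of 0.295 (edgeR). None of the 7 genes was called, beside 0.312% of all genes. The change with tamoxifen in diseased mice differed most for *Pik3c2a*, by 0.53 with an interval of 0.01 to 1.06 and an adjusted p of 0.20 (edgeR), which was also the only unadjusted p under 0.05. None was called there either, beside 1.71% of all genes (274 genes, but 6 without S619L tamoxifen mouse 2 and 2195 without KO tamoxifen mouse 2), and DESeq2 called none in either test.

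**Figure D4:**
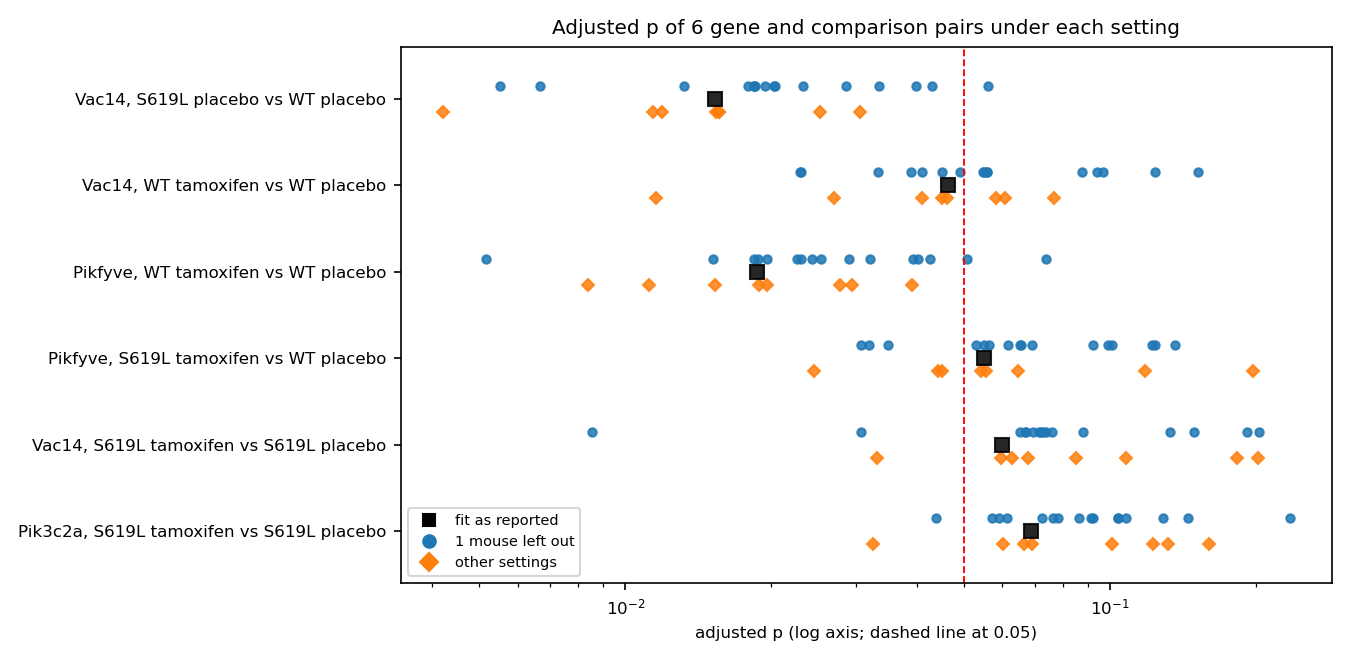
Adjusted p (x axis, log scale, dashed line at 0.05) of 6 gene and comparison pairs (y axis) as reported (black squares), with each of the 16 mice of the Dnm2 cohort left out (blue circles) and under 8 other settings (orange diamonds). *Vac14* in S619L placebo mice lies left of the line in all but 1 setting, and *Vac14* in WT tamoxifen mice lies on both sides of it.

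The genes around this pathway were taken from 8 lists with 77 genes, of which 76 were tested. In S619L against WT placebo mice 3 were higher and 13 lower, together 21.1% of those tested, beside 12.1% higher and 9.81% lower among all genes. In the myotubularin family, whose active members remove the phosphate that PI3P kinases add and whose other members, *Mtmr10* among them, lack catalytic activity, none of 14 was higher and 4 were lower. They include *Mtmr3* (61.5 ± 6.56 against 86.1 ± 6.15 CPM, log2 -0.48, adjusted p = 0.00488) and *Mtmr2* (18.8 ± 0.888 against 25.6 ± 2.48 CPM, log2 -0.44, adjusted p = 0.00535). *Mtm1* itself was at 16.7 ± 1.90 and 15.8 ± 2.38 CPM (SD, n = 4). The 4 endosomal Rab GTPases, which mark the compartments that hold these lipids, included *Rab7* (139.2 ± 4.04 against 184 ± 13.5 CPM, log2 -0.40, adjusted p = 0.00437) and *Rab5b* (log2 -0.30, adjusted p = 0.0317) as lower.

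Of 15 PI3P effectors, 1 was higher and 3 lower. *Hgs*, the FYVE protein that sorts ubiquitinated cargo into endosomes, was at 37.8 ± 8.31 CPM in S619L and 22.4 ± 2.86 CPM in WT placebo mice (SD, n = 4, log2 0.75, adjusted p = 0.00393). *Zfyve9*, another FYVE protein, was lower (log2 -0.52, adjusted p = 0.0221). Of 5 PI(3,5)P2 effectors, the endolysosomal channel *Tpcn1* was lower (log2 -0.43, adjusted p = 0.009). Of 13 other phosphatases, *Inpp4b* was higher (log2 0.86, adjusted p = 0.0191) and 2 were lower, with *Inpp5b* at log2 -0.44 (adjusted p = 0.00409). Of 10 PI4 and PIP kinases, *Pi4k2a* was higher (log2 0.55, adjusted p = 0.00165) and *Pip5k1c* lower (log2 -0.34, adjusted p = 0.0108). With each of the 16 mice left out in turn, 8 of these 11 named genes kept the call every time, *Inpp4b* kept it 13 times, *Zfyve9* 12 times and *Rab5b* 11 times. None of 6 tested partners of class II and class III kinases and none of 9 class I PI3K genes was called.

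With tamoxifen in WT mice, 8 of 76 were higher and 4 lower, together 15.8% beside 27.7% of all genes. *Pi4k2b* (7.27 ± 1.14 against 2.85 ± 0.396 CPM, log2 1.35, adjusted p = 0.000351) and *Pip4k2a* (18.0 ± 3.35 against 7.85 ± 1.03 CPM, log2 1.19, adjusted p = 0.0122), both lipid kinases, had the smallest p of their list. The class I regulatory subunits *Pik3r1* (log2 0.89) and *Pik3r5* (log2 2.11), the PI3P effector *Ankfy1* (log2 0.32), the channel *Tpcn2* (log2 0.93) and *Mtmr11* (log2 1.30) were also higher. *Mtmr10* (log2 -0.57), *Wipi1* (log2 -0.31), a PROPPIN of early autophagosomes, and *Inppl1* (log2 -0.29) were lower. Bone and macrophage markers were higher in the same mice, and their part in these calls was not tested. With each of the 16 mice left out in turn, 7 of these 10 genes kept the call every time, *Pik3r5* kept it 13 times, *Ankfy1* 11 times and *Inppl1* 10 times.

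In S619L mice tamoxifen went with 2 calls among the 76 genes (2.63%), beside 8.26% of all genes, a share that moved with the setting. They were *Pip4k2c* higher (log2 0.33, adjusted p = 0.0462) and the class I catalytic subunit *Pik3cb* lower (log2 -0.36, adjusted p = 0.0338). With a mouse left out, *Pip4k2c* kept its call in 3 of 16 fits and *Pik3cb* in 10 of 16. *Pik3cb* was also lower in S619L tamoxifen than in WT placebo (log2 -0.47, adjusted p = 0.00275) and WT tamoxifen mice (log2 -0.45, adjusted p = 0.0212, kept in 11 of 16 fits with a mouse left out). Against WT tamoxifen mice it was the only call among the 76, or 1.32% beside 2.7% of all genes. Between S619L tamoxifen and WT placebo mice 18 of 76 genes were called, 7 higher and 11 lower, together 23.7% beside 28.9% of all genes. In the same comparison 7 of 8 markers of bone-forming cells, 4 of 4 of osteoclasts, 5 of 5 of fibroblasts, 5 of 6 of macrophages and 5 of 6 of cartilage and tendon were higher and 4 of 8 of muscle fibers were lower, and their part in these calls was not tested. The 2 with the smallest p in each list were *Pik3r5* and *Pik3cb*, *Mtmr10* and *Mtmr6*, *Zfyve9* and *Hgs*, *Pi4k2b* and *Pi4k2a*, and *Rab7* and *Rab5b*, and *Tpcn2* and *Inpp4b* were the only calls of theirs. With each of the 16 mice left out in turn, 6 of these 12 genes kept the call every time, *Pi4k2b* kept it 15 times, *Pik3r5* and *Pi4k2a* 13 times, *Rab5b* and *Tpcn2* 11 times and *Inpp4b* 10 times. *Hgs* was 0.63 higher and *Rab7* 0.38 lower in log2 terms, near their values without tamoxifen. In the Bin1 cohort *Inpp4b* was higher in KO than WT placebo mice (20.9 ± 5.97 against 10.4 ± 2.37 CPM, log2 1.01, adjusted p = 0.0246), and *Inppl1* fell with tamoxifen in KO mice (log2 -0.49, adjusted p = 0.0389). These calls were kept in 7 and 5 of 12 fits that left out a mouse. Each was the only call among the 76 in its comparison, or 1.32% beside 2.61% and 3.13% of all genes. None of the 76 was called by edgeR in the interaction (beside 0.259% of all genes) or between KO tamoxifen and WT placebo mice (0.849%). None was called between the cohorts' changes with disease (0.312%) or with tamoxifen (1.71%).

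**Figure D5:**
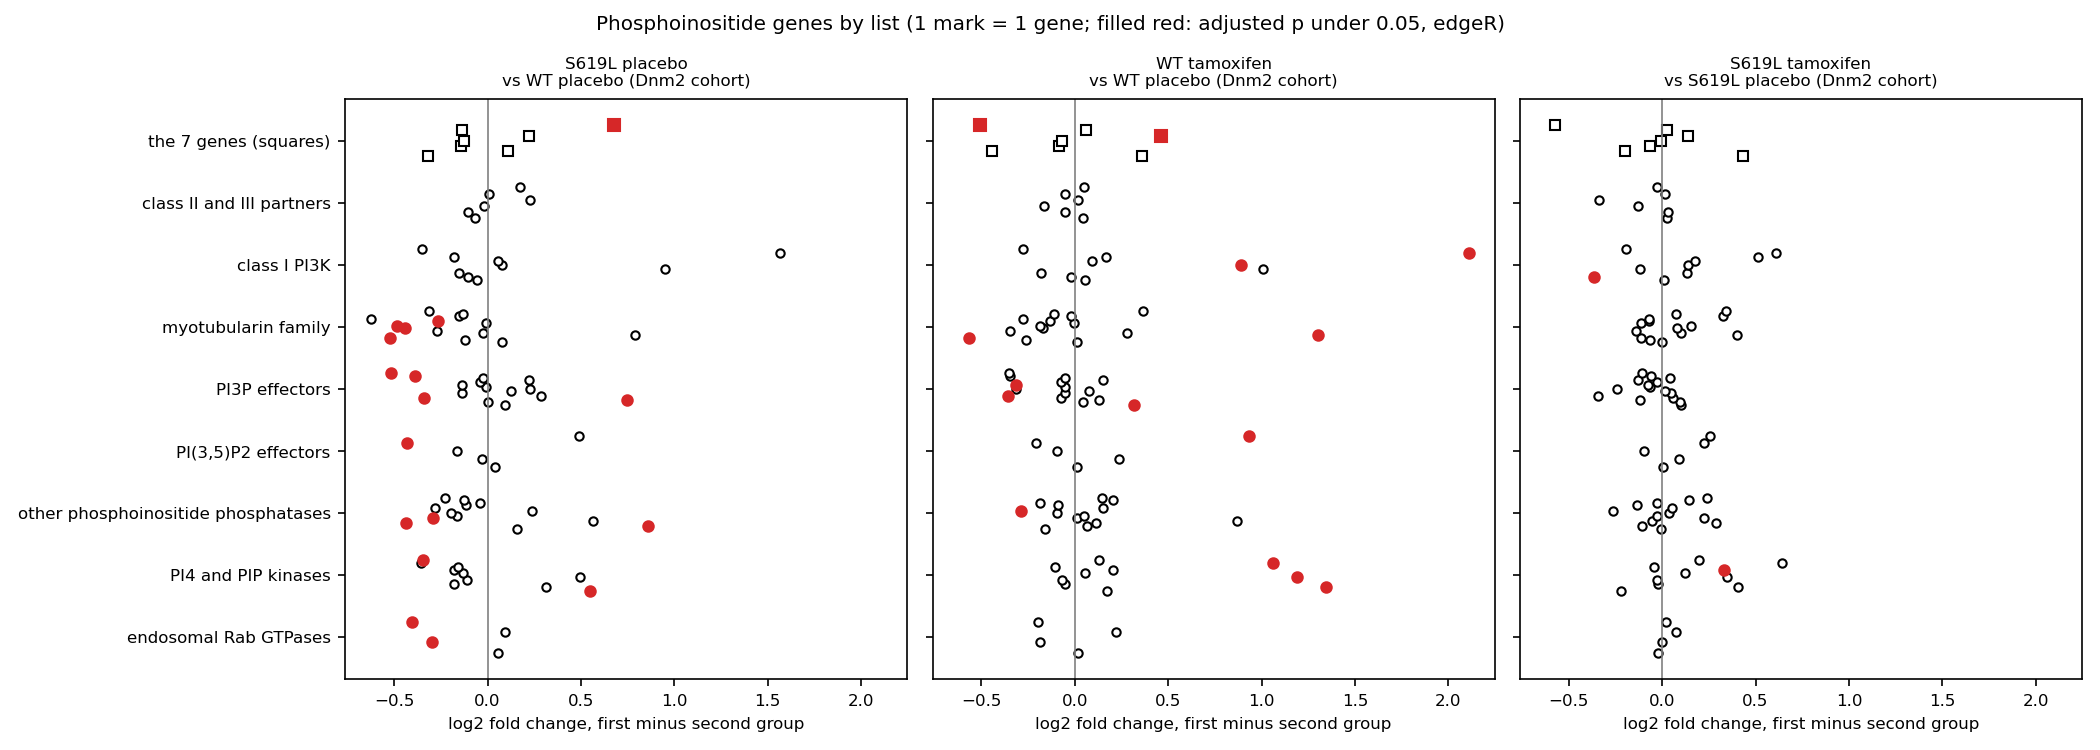
Log2 fold change (x axis) of each tested gene of the 8 lists (circles, 1 row per list) and of the 7 genes (squares) in 3 comparisons of the Dnm2 cohort (panels), with filled red marks for adjusted p under 0.05 in edgeR. In S619L placebo mice (left) 13 of the 16 red circles lie left of 0, and *Vac14* at 0.68 is the red square.

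Across the 28 mice, the genes with the most similar pattern to each of the 7 were taken from the 3 highest Pearson correlations of log2 CPM among 10873 genes, with each value centred on its cohort. The mice share groups and library protocols, so the values describe these data only. *Vac14* was closest to *Kars* (r = 0.896), *Shisa4* (0.893) and *Srpk3* (0.886). *Pik3c3* was closest to *Bsdc1* (0.829), *Cebpz* (0.81) and *Phf7* (0.806), and *Pik3r4* to *Mtor* (0.745), *Mfap1a* (0.743) and *Tmem63b* (0.726). *Pik3c2a* was closest to *Ccdc82* (0.822), *Mpzl1* (0.772) and *Rasa1* (0.759), and *Pik3c2b* to *Naa40* (0.80) and *Dusp10* (0.793). *Pikfyve* was closest to *Ccnl2* (0.76), *Zc3h7a* (0.746) and *Ammecr1* (0.723), and *Fig4* to *Cmtr1* (0.73), *Lrpap1* (0.719) and *Adgrl1* (0.702). None of the 7 was among the neighbours of another. For *Vac14* the correlation with *Shisa4* was 0.943 in the Dnm2 cohort and 0.305 in the Bin1 cohort, and for *Pikfyve* that with *Ammecr1* was 0.886 and -0.0826.

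Among the 21 pairs of the 7 genes, r ran from -0.519 to 0.527 over the 28 mice. The class III subunits *Pik3c3* and *Pik3r4* had 0.454, with 0.689 in the Dnm2 and 0.197 in the Bin1 cohort. *Pik3c3* and *Fig4* had 0.484, with 0.489 and 0.593. Within the PIKfyve complex the values were negative, with -0.383 for *Pikfyve* and *Vac14*, -0.237 for *Fig4* and *Vac14* and -0.0678 for *Pikfyve* and *Fig4*. *Vac14* and *Pik3c2b* had the highest value, 0.527, with 0.536 and 0.61 within the cohorts. *Vac14* and *Pik3c2a* had the lowest, which was -0.737 in the Dnm2 and 0.0669 in the Bin1 cohort.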

How the data were processed

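The deposited values are raw read counts by Ensembl gene identifier for the 28 mice, with 1 table for each cohort. Libraries were strand-specific and polyA-selected, from 300 ng (Dnm2 cohort) or 350 ng (Bin1 cohort) of RNA. The submitters' processing notes name bcl2fastq 2.20.0.422, cutadapt 1.10, Bowtie 1.2.2, STAR 2.5.3, HTSeq 0.6.1p1 and mm39, without roles. Lines of the Bin1 table that name no gene (22.0% to 30.8% of counts, median 23.9%) were left out.

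Counts were tested with edgeR 4.0.16 in R 4.3.3 (TMM, filterByExpr, robust quasi-likelihood test, prior count of 2 for log2 values), with 1 fit per cohort and 1 of all 28 mice for differences between cohorts. Benjamini-Hochberg adjusted p under 0.05 over all genes was the threshold, and all intervals are 95%. CPM per kilobase uses GENCODE M21 exon lengths, joined over all exons of a gene, which are of another build than the counts and so approximate. Symbols matched 52083 of 55359 identifiers. On simulated counts for S619L against WT placebo mice (15439 genes, 200 changed), 83% of 4-fold and 55% of 2-fold changes were recovered.

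The labels do not state that replicate numbers pair the mice. The 24 same-numbered pairs of the Dnm2 cohort had r from -0.325 to 0.335, with 9 above 0.1. Pairs with different numbers were not set beside them, so this check cannot decide whether the numbers pair mice. No 2 libraries of a group agreed within counting noise. The alternatives were DESeq2 1.42.0, RLE, no filter, the study's filter (over 10 reads in 90% of mice), a fit of the compared groups alone, a block for the replicate number, library sizes without mitochondrial genes, *Xist* as a covariate and leaving out each mouse. In each comparison, at most the 2 called genes of a pathway list with the smallest p are named, besides the 7 genes. The 7 genes and the lists were chosen with earlier results of these data known. A gene among the closest patterns to *Pik3c2b* is not reported here.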

Additional observations from a re-analysis of the deposited data

Results flagged for a closer look

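Each of the 7 genes was checked in each of the 7 groups, 49 sets of 4 mice, for a mouse far from the other 3 (gap over range above 0.829). This singled out 1 value, *Pik3c2a* in S619L tamoxifen mouse 2, at 13.7 CPM against 10.3 to 10.6 CPM in the other 3 mice, with a gap of 0.897 of the range. Chance gives about 1 in 20 such sets.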

How the results depend on the processing

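Over the 7 genes and 11 comparisons, 1849 of the results under an alternative kept their side of the threshold, 15 lost a call, 19 gained one and none reversed a call. The number of the 7 genes called in S619L against WT placebo mice was 1 in every setting except that it ranged from 0 to 1 when a mouse was left out. In WT tamoxifen against WT placebo mice it was 2, and 3 with DESeq2 (which added *Pik3c2b*), 1 with no filter on low counts (*Vac14* adjusted p = 0.0609) and with the study's filter (0.0581), and 0 to 3 when a mouse was left out. In S619L tamoxifen against S619L placebo mice it was 0, and 2 with DESeq2, and 0 to 2 when a mouse was left out. In S619L tamoxifen against WT placebo mice it was 0, and 1 with DESeq2 (*Pikfyve* adjusted p = 0.045), with the study's filter (0.0441) and with only the groups compared (0.0245), and 0 to 2 when a mouse was left out. In S619L against WT mice on tamoxifen it was 0, and 1 with DESeq2, and 0 to 1 when a mouse was left out. No alternative gave a call in the interaction, in the Bin1 cohort or between the cohorts. The causes were not tested. The number of all genes called, against which the 7 are read, moved with single mice and with the setting. Between S619L tamoxifen and S619L placebo mice it was 1276, but 30 with only the groups compared. It was 368 there without S619L tamoxifen mouse 3 and 2562 without mouse 4. Between KO and WT placebo mice it was 388, but 18 without WT placebo mouse 8, 26 without mouse 6 and 1458 with only the groups compared. For the difference of the tamoxifen changes between cohorts it was 274, but 6 without S619L tamoxifen mouse 2 and 2195 without KO tamoxifen mouse 2.

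With the replicate number as a block, which pairs no mice by the labels, the count in WT tamoxifen mice stayed at 2, but *Pik3c2b* (log2 -0.47, adjusted p = 0.0481) took the place of *Vac14* (log2 -0.50, adjusted p = 0.0766). The block was not run against WT mice in the Bin1 cohort, whose numbers are not shared, or across the cohorts. Of the 38 named results of pathway genes, 21 kept their call in every setting, and none reversed. The number of pathway genes called in S619L against WT placebo mice was 16, with 9 to 18 when a mouse was left out and 11 to 20 under the other settings. In WT tamoxifen against WT placebo mice it was 12, with 7 to 14 when a mouse was left out and 8 to 18 under the other settings. In S619L tamoxifen against WT placebo mice it was 18, but 11 with *Xist* as a covariate and with no filter on low counts, and 8 to 22 when a mouse was left out. In S619L tamoxifen against S619L placebo mice it was 2, but 4 with DESeq2 and 0 with *Xist* as a covariate, with no filter, with the block and with only the groups compared. In S619L against WT mice on tamoxifen it was 1, and 5 with DESeq2, and in KO against WT placebo mice it was 1, and 8 with only the groups compared.

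The log2 differences of the 7 genes were all below 2-fold, and a missing call does not show equal levels. In counts simulated for S619L against WT placebo mice 55% of 2-fold changes were recovered. In those for the difference of disease effects between cohorts it was 45%. Each simulation changed only 200 genes drawn at random from all genes tested, so these shares do not give the recovery for the 7 genes. The lowest count of any of the 7 genes in a mouse was 91 reads.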
